A study of Mus musculus with 8 samples.

Results

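Hedgehog ligand alone and the Esrrb vector alone were compared directly in NIH3T3 cells, a line of mouse embryonic fibroblasts that responds to Hedgehog ligand. The comparison used 4 of the 8 samples of the series: the 2 Hh-CM samples, which carried the empty pcDNA3.1 vector and received 1:100 Hh-CM for 48 h, and the 2 samples that the labels put in the Esrrb group, which carried pcDNA3.1-Esrrb and received the vehicle for 48 h. Hh-CM is medium conditioned by human HEK293 kidney cells that secrete the N-terminal part of Sonic hedgehog, and the vehicle is equally diluted medium from HEK293 cells without the transgene. Both lines had been selected with zeocin, were pools of stable transfectants and not single clones, and were confluent at treatment. In a pool, a larger share of responding cells and more RNA in each cell cannot be told apart. The 2 Control samples (empty vector, vehicle) and the 2 Esrrb+Hh-CM samples (Esrrb vector, Hh-CM) served as references. The groups compared differ in the vector line and in the medium, so the parts of these 2 factors in a difference cannot be told apart within these 4 samples. The samples of a group were described as biological replicates, but not whether they came from separate transfections, so the p-values measure only the spread between these samples.

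Hedgehog ligands bind the receptor Ptch1, which releases Smoothened and lets the Gli transcription factors act, and Gli1 and Ptch1 are themselves transcribed in response. Estrogen related receptor β (Esrrb) is an orphan nuclear receptor that binds DNA without a known natural ligand and is best known from pluripotent stem cells. NIH3T3 cells do not normally make it.

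Expression was given as FPKM, fragments scaled to transcript length and to the mapped fragments of the sample. The assembled loci were listed separately for each sample and were assigned to annotated genes by their mm9 position. Of 20203 genes with a value in all 8 samples, 10132 reached an FPKM of 1 in 2 or more of the compared samples and were tested. The files hold no read counts, and the steps of low values put the relative depth of the 8 samples between 0.742 and 1.54, with Control replicate 1 at 1. The file of Esrrb replicate 1 stood apart: it held 4339 repeated locus identifiers, against 136 to 147 in the other samples, and shared 8080 numbered identifiers at equal positions with Hh-CM replicate 2, against at most 106 for any other 2 samples. The main counts, and the list counts that moved most, are therefore also given without these 2 samples. The Esrrb gene, on chromosome 12 from 87702067 to 87862578, was listed at 0 in both Esrrb samples and both Esrrb+Hh-CM samples, and 3 reads would have been worth 0.110 and 0.0965 FPKM in the 2 Esrrb samples. Some widely expressed genes, such as Esrra, were listed at 0 as well. The mRNA values thus do not show the vector's gene, and the samples are called Esrrb-labelled below. By Western blot, the paper reported increased Esrrb protein in the cells with the Esrrb vector, a measurement that is not analysed here. Fibroblast markers summed to between 5479 and 6385 FPKM in every sample, while the 4 epithelial markers Cdh1, Epcam, Krt8 and Krt18 summed to at most 0.0916 FPKM, the 3 endothelial markers to at most 0.184 and the 3 muscle markers to at most 0.324. The 3 leukocyte markers summed to between 1.98 and 3.67 FPKM, most of it from Cd68 and Lyz2.

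Between Hh-CM and Esrrb-labelled cells, 392 of the 10132 tested genes (3.87%) were differentially expressed, 213 (2.10%) higher in Hh-CM cells and 179 (1.77%) higher in Esrrb-labelled cells. Genes were called where the adjusted p was below 0.05 and the log2 difference at least 1 in size, in a limma fit of log2(FPKM + 0.1), whose differences understate the change of weakly expressed genes. The median log2 difference, Hh-CM minus Esrrb-labelled, was -0.0081 over all tested genes. It was 1.61 over the called genes higher in Hh-CM cells and -1.42 over those higher in Esrrb-labelled cells. The values of the 2 groups did not overlap in any of the 392 genes, nor in 67.2% of all tested genes. Against the common Control samples, 270 genes (2.66%) were called in Hh-CM cells and 139 (1.37%) in Esrrb-labelled cells. With 2 samples against 2, an exact permutation test of a single gene cannot give a p below 0.33, so all adjusted p-values are from the limma fit. Without Esrrb replicate 1, 411 genes were called, without Hh-CM replicate 2, 403, and without both, 395, of which 288 were among the 392.

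**Figure D1:**
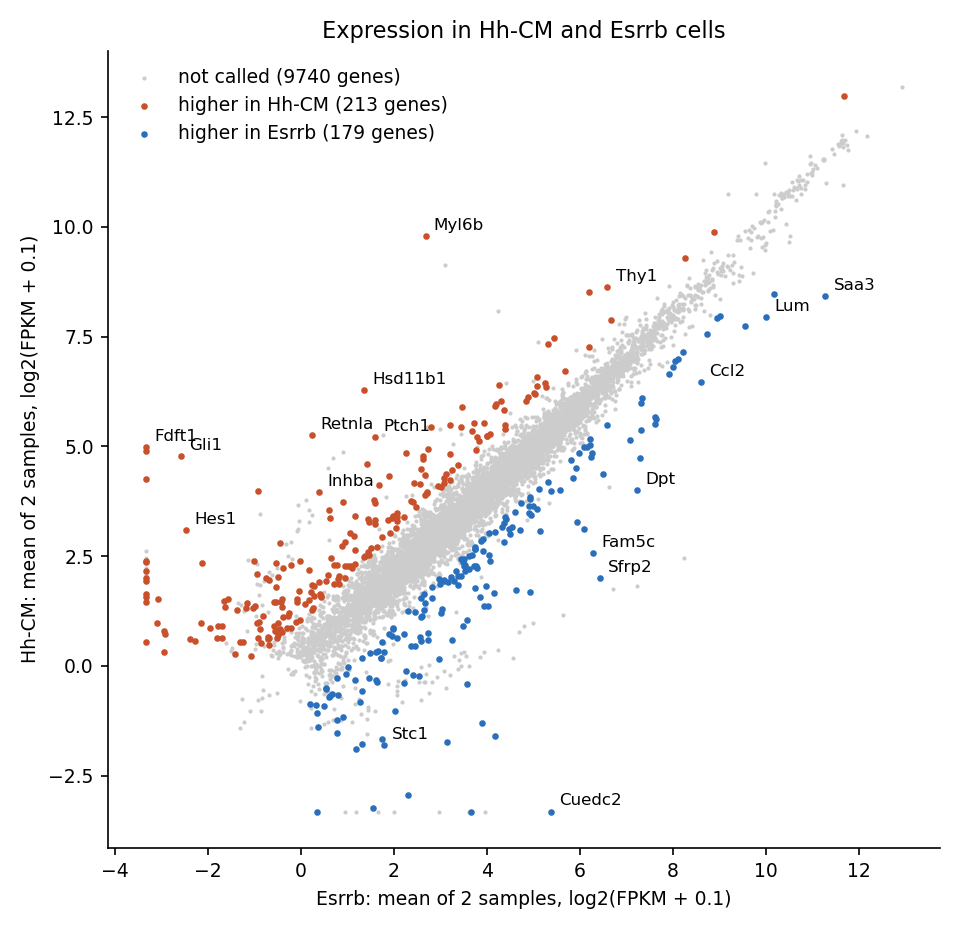
Mean log2(FPKM + 0.1) of the 2 Hh-CM samples (y axis) against that of the 2 Esrrb-labelled samples (x axis), 1 point for each of the 10132 tested genes. The 213 genes higher in Hh-CM cells lie above the diagonal and the 179 higher in Esrrb-labelled cells below it, with genes listed at 0 in a group along the left and lower edges.

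Hes1, Sfrp2 and Dpt are the genes taken to mark the contrast, a choice made with earlier results of these data known. Hes1 encodes a basic helix-loop-helix repressor that is a classical target of Notch signaling. On chromosome 16 from 30064470 to 30067882, it had FPKM values of 8.60 and 8.35 in the 2 Hh-CM samples and of 0.117 and 0.0515 in the 2 Esrrb-labelled samples. The log2 difference was 5.56 (SE 0.236, limma adjusted p = 5.95e-05), a ratio of the means of 100.3. Both Esrrb-labelled values lie near the pseudocount of 0.1, so the size of the difference and the ratio are imprecise. Its Control values of 0.550 and 0.725 FPKM lay between the 2 groups, and the Esrrb+Hh-CM values of 3.27 and 2.69 lay between Control and Hh-CM.

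Sfrp2 encodes a secreted protein that binds Wnt ligands. It lies on chromosome 3 from 83570243 to 83578238, and its FPKM was 3.47 and 4.33 in Hh-CM cells against 85.5 and 87.2 in Esrrb-labelled cells. This was a log2 difference of -4.44 (SE 0.103, limma adjusted p = 8.57e-06), or 22.1-fold between the means. Control samples were at 8.13 and 7.75 FPKM and the combined samples at 33.5 and 31.8, so no values of any 2 groups overlapped.

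Dpt, on chromosome 1 from 166726863 to 166754397, encodes dermatopontin, a small protein of the extracellular matrix that binds decorin. Expression was 17.1 and 14.9 FPKM in Hh-CM cells and 151 and 150 FPKM in Esrrb-labelled cells, a log2 difference of -3.23 (SE 0.0675, limma adjusted p = 8.3e-06). The 2 combined samples, at 33.3 and 33.0 FPKM, fell below the Control values of 71.3 and 74.2, whereas for Sfrp2 the combined samples were above Control. In the direct comparison, Hes1, Sfrp2 and Dpt were called under each alternative setting in which they were tested. Their log2 differences ran from 3.13 to 6.58, from -4.61 to -4.16 and from -3.33 to -3.13. This does not cover their differences from Control.

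The promoters of Sfrp2 and Dpt are shown because both genes were below Control in Hh-CM cells and above it in Esrrb-labelled cells. They come from RefSeq (GRCm38.p6, a different build from the mm9 of the values) and span 250 bases before the annotated start to 30 bases after it. The Sfrp2 sequence is chr3:83766071-83766350 and the Dpt sequence chr1:164796413-164796692, both on the plus strand. Capitals mark TATAAA, searched on both strands and found in 13.6% of the 32851 promoters of the table.
Sfrp2: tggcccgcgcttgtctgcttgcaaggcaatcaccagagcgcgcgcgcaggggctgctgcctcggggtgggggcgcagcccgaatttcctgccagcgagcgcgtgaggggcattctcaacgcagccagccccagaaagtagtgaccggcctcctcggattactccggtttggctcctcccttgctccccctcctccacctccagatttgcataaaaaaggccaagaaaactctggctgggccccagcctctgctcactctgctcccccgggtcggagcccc
Dpt: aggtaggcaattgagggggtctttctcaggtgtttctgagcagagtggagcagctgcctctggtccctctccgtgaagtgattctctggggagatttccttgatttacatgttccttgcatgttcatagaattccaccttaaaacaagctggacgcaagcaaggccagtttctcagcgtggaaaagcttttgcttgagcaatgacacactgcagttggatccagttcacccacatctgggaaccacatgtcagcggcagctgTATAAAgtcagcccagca
Dpt held TATAAA, which began 12 bases after the annotated start and not upstream of it, and Sfrp2 did not. Neither held the Gli motif GACCACCCA, which 0.253% of all promoters held on either strand, or the estrogen related receptor motif TCAAGGTCA, which 0.423% held. Promoters were found, by symbol or synonym, for 281 of the 392 called genes (71.7%). The motif search covered only genes with the same symbol in both sources, and none of these held either motif. This search over the called genes is void, because fewer than 80% of them had a sequence.

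The direct Hedgehog readouts stood at the top of the genes higher in Hh-CM cells. Gli1, the transcription factor most often used as a readout of the pathway, had FPKM values of 26.8 and 28.1 in Hh-CM cells and of 0.106 and 0.0372 in Esrrb-labelled cells (log2 difference 7.36, SE 0.20, limma adjusted p = 1.4e-05). The receptor gene Ptch1 was at 37.0 in both Hh-CM samples and at 3.08 and 2.76 in Esrrb-labelled samples (3.62, SE 0.108, limma adjusted p = 1.93e-05). In Esrrb-labelled cells neither Gli1 nor Ptch1 passed the test against Control, with log2 differences of 0.41 and 0.11 (limma adjusted p = 0.218 and 0.545).

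Of 24 Hedgehog pathway and target genes listed, 19 were tested, 4 were called higher in Hh-CM cells and 1 higher in Esrrb-labelled cells, with a median log2 difference of 0.16. Among the 4, beside Gli1 and Ptch1, was Bcl2, a survival gene, at 4.79 and 4.75 FPKM against 2.04 and 2.01 (log2 difference 1.20, limma adjusted p = 0.00155), a call lost without both of the samples named above. Gas1, a co-receptor that binds the ligand, was the one lower in Hh-CM cells, at 128 FPKM in both samples against 276 in both Esrrb-labelled samples (-1.11, SE 0.0509, limma adjusted p = 7.6e-05). Gli2, the main activator of the pathway, was at 10.6 and 11.8 FPKM against 6.27 and 6.11, a log2 difference of 0.84 that passed the limma adjusted p (0.00111) and missed the limit of 1. The signal transducer Smo, at 55.0 and 53.4 against 60.3 and 60.0 FPKM, and the inhibitor Sufu, at 13.3 and 15.7 against 16.1 and 17.4, had log2 differences of -0.15 and -0.21. Hhip, which encodes a decoy receptor, was listed at 0 in all 8 samples.

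Other leading genes higher in Hh-CM cells separated into 2 patterns across the 4 groups. In the first, Hh-CM cells stood far above Control, and the combined samples were high too. Hsd11b1, whose enzyme regenerates active glucocorticoid from its inactive form, had FPKM values of 78.9 and 76.8 in Hh-CM, 3.22 and 1.91 in Esrrb-labelled, 3.77 and 3.63 in Control and 167 and 138 in the combined samples (log2 difference 4.92, SE 0.231, limma adjusted p = 7.91e-05). Retnla, a secreted resistin-like protein, was at 35.1 and 41.6 in Hh-CM and 1.04 and 1.14 in Esrrb-labelled samples, and reached 144 in both combined samples (5.01, SE 0.688, limma adjusted p = 0.00446), and its call was lost without both samples named above (limma adjusted p = 0.0991). Pgf, a growth factor of the VEGF family, was at 5.36 and 4.65 FPKM against 0.138 and 0.121, but only at 1.05 and 1.11 in the combined samples (4.47, SE 0.210, limma adjusted p = 7.88e-05). Like all 392 called genes and 67.2% of all tested genes, these 3 had non-overlapping values in Hh-CM and Esrrb-labelled cells.

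In the second pattern Hh-CM cells were near Control and both groups with the Esrrb vector were low. Ppargc1a, a coactivator of estrogen related receptors and of mitochondrial genes, was at 2.67 and 2.84 FPKM in Hh-CM, 2.57 and 2.75 in Control, 0.234 and 0.246 in Esrrb-labelled and 0.377 and 0.457 in combined samples (log2 difference 3.07, SE 0.166, limma adjusted p = 0.000136). Pkia, an inhibitor of protein kinase A, had FPKM values of 7.24 and 6.60 in Hh-CM against 0.605 and 0.665 in Esrrb-labelled cells (3.26, limma adjusted p = 4.87e-05). The microtubule-associated gene Mtap2 was at 1.68 and 1.44 against 0.0281 and 0.0369 (3.65, limma adjusted p = 0.000621), and the orphan receptor gene Gpr149 at 5.36 and 4.88 against 0.314 and 0.496 (3.39, limma adjusted p = 0.000275). In Pkia, Mtap2 and Gpr149 the combined samples had at most 0.644, 0.0883 and 0.304 FPKM, while Control was at 5.23 or more, 1.09 or more and 5.59 or more.

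Several of the leading genes higher in Esrrb-labelled cells were high in both groups with the Esrrb vector. Fam5c was at 77.4 and 78.7 FPKM in Esrrb-labelled cells, at 82.6 and 77.7 in combined samples and at 5.93 and 5.72 in Hh-CM cells (log2 difference Hh-CM minus Esrrb-labelled -3.72, SE 0.0485, limma adjusted p = 2.54e-06). Spats2l, Gda (guanine deaminase) and Podxl2 (a sialomucin) were also higher in both of these groups than in Hh-CM cells. Their log2 differences were -3.25, -3.09 and -3.07 (limma adjusted p = 8.3e-06, 0.00115 and 0.000924). Gda was only at 2.68 and 2.13 FPKM in Esrrb-labelled against 0.254 and 0.141 in Hh-CM cells, and Podxl2 at 2.41 and 1.97 against 0.125 and 0.226. These Hh-CM values lie near the pseudocount of 0.1, so the sizes of the 2 differences are imprecise. The transporter gene Abcc3, at 12.6 and 11.0 FPKM against 0.199 and 1.78, differed widely between its Hh-CM samples (-3.98, SE 0.810, limma adjusted p = 0.0174), and its adjusted p was 0.0753 and 0.0694 without Esrrb replicates 1 and 2.

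**Figure D2:**
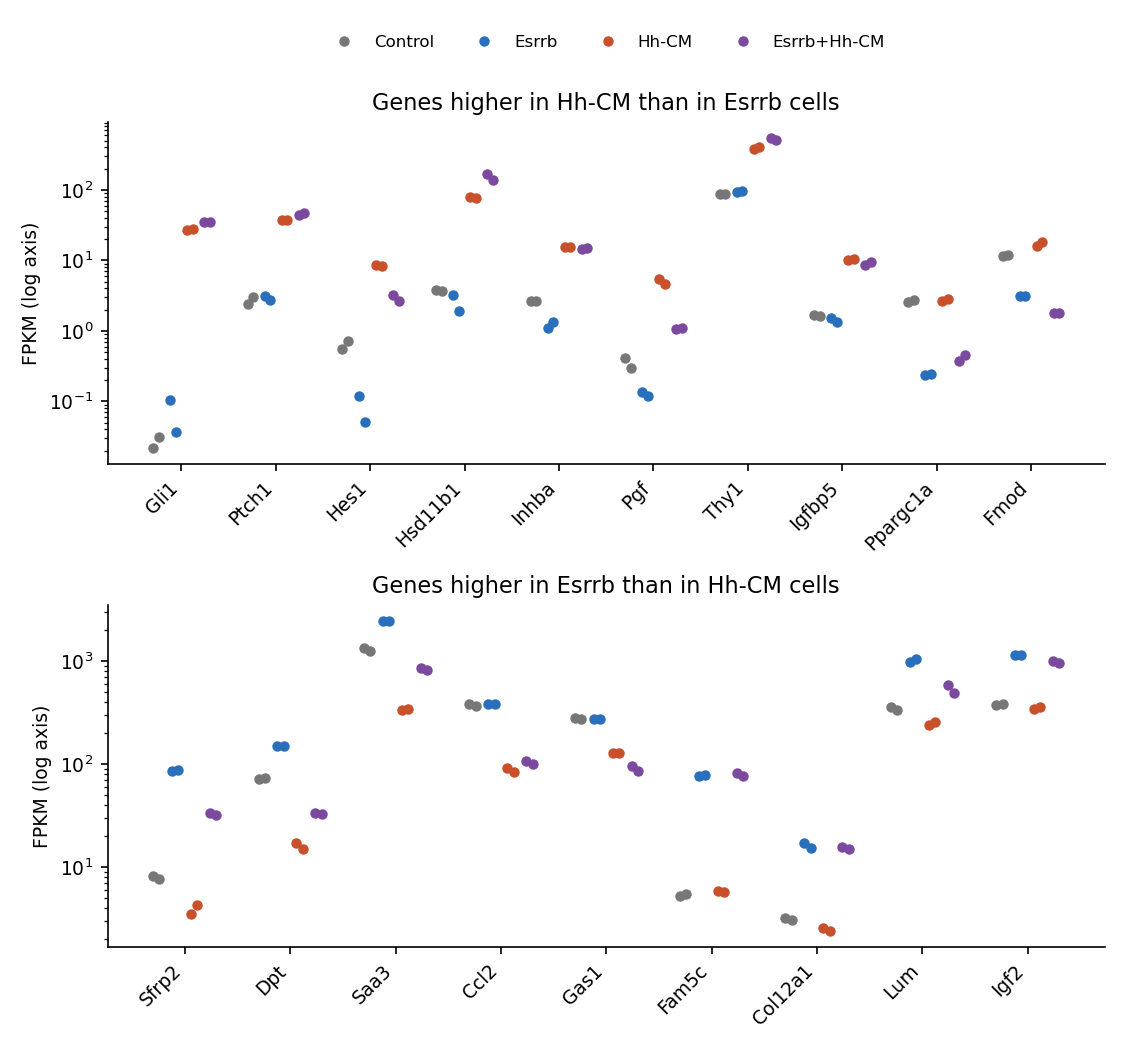
FPKM on a log axis of 19 named genes in each of the 8 samples, 2 points per group: Control (grey), Esrrb-labelled (blue), Hh-CM (red) and Esrrb+Hh-CM (purple). Gli1, Ptch1 and Hsd11b1 are high in both groups that received Hh-CM, while Fam5c and Col12a1 are high, and Ppargc1a and Fmod low, in both groups with the Esrrb vector.

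The difference between the 2 perturbations was also read from gene lists. Over all tested genes, 1322 (13.0%) were higher and 1353 (13.4%) lower in Hh-CM cells by the adjusted p alone, and the lists are read beside these shares. In the list of 27 mitosis and DNA replication genes, all 26 tested had a positive log2 difference, 22 passed the adjusted p, and the median was 0.56. Only Top2a, a topoisomerase of dividing cells, and Cenpf, a kinetochore gene, also passed the fold limit. Top2a was at 43.2 and 41.2 FPKM in Hh-CM against 20.8 and 20.7 in Esrrb-labelled cells (log2 difference 1.02, SE 0.0427, limma adjusted p = 5.67e-05), and Cenpf at 3.98 and 3.67 against 1.78 and 1.52 (1.17, SE 0.107, limma adjusted p = 0.00103). Without Hh-CM replicate 1, Top2a was at 0.99. The replication licensing genes Mcm2 and Mcm4 had log2 differences of 0.03 and 0.04. Against Control, the median of the 26 genes was 0.86 in Hh-CM, 0.31 in Esrrb-labelled and 1.85 in combined cells. The number of the 26 past the adjusted p was 15 without Esrrb replicate 1, 13 without Hh-CM replicate 2 and 8 without both, with medians of 0.57, 0.59 and 0.60.

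Calls among acute-phase, chemokine and cytokine genes went in both directions. Of 19 tested, 6 were called higher in Esrrb-labelled and 3 higher in Hh-CM cells, and the median log2 difference was -0.76. The acute-phase gene Saa3 was at 340 and 344 FPKM in Hh-CM and at 2492 and 2476 in Esrrb-labelled cells (log2 difference -2.86, SE 0.0420, limma adjusted p = 2.55e-06), with Control between them at 1351 and 1265. Ccl2, a monocyte attractant, was at 92.6 and 84.8 against 387 in both Esrrb-labelled samples (-2.13, SE 0.0545, limma adjusted p = 1.06e-05), where Control was at 386 and 372. Cxcl5 and Ccl7, at log2 differences of -1.81 and -1.31, were lower in Hh-CM cells too, and Ccl11 and Ccl9, both at a few FPKM, were at -1.33 and -1.20. The 3 genes higher in Hh-CM cells were the alarmin Il33, at 61.1 and 60.1 against 18.4 and 17.6 FPKM (1.75, limma adjusted p = 1.06e-05), Saa1, at 3.12 and 3.67 against 0.544 and 0.635 (2.34, limma adjusted p = 0.00536), and Il6, at 5.91 and 5.04 against 2.16 and 2.83 (1.11, limma adjusted p = 0.0171). The acute-phase genes Hp and Cp had log2 differences of 0.53 and 0.84. Il6 missed the threshold without Esrrb replicate 1, Hh-CM replicate 1 or Hh-CM replicate 2 (limma adjusted p = 0.0778, 0.0892 and 0.0507), and Ccl11 without any 1 of the 4 samples (0.0595 to 0.12). Without both of the samples named above, the counts were 4 and 1, with a median of -0.71.

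Among matricellular proteins and small leucine-rich proteoglycans, 20 of 23 listed genes were tested, all 20 passed the adjusted p, and 6 were called higher in Esrrb-labelled and 3 higher in Hh-CM cells. Without Hh-CM replicate 2, 7 passed the adjusted p as higher and 10 as lower in Hh-CM cells, and without both samples named above 4 and 8, with the same numbers of calls. Lum, which encodes the collagen-binding lumican, was at 239 and 255 FPKM in Hh-CM and at 989 and 1059 in Esrrb-labelled cells (log2 difference -2.05, SE 0.0958, limma adjusted p = 7.82e-05). Fmod, which encodes fibromodulin of the same family, went the opposite way, at 16.3 and 18.3 against 3.09 and 3.14 (2.43, SE 0.0788, limma adjusted p = 2.34e-05). The thrombospondin gene Thbs1 was at 35.2 and 35.6 against 136 and 133 (-1.92, limma adjusted p = 2.17e-05). Thbs2, Cyr61 and Sparcl1 were lower in Hh-CM cells by log2 differences of -1.04, -1.52 and -1.28, next to Dpt, and Nov and Smoc2 were higher by 1.49 and 1.03. Smoc2 fell below the fold limit without Esrrb replicate 2, at 0.98.

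Of 26 tested collagen and collagen-processing genes, 3 were called higher in Hh-CM cells and 2 higher in Esrrb-labelled cells, with a median of -0.05. Col4a1 and Col4a2, the ubiquitous chains of basement membrane collagen, which are neighbours transcribed in opposite directions, were at 151 and 173 against 40.9 and 39.1 FPKM (log2 difference 2.01, limma adjusted p = 2.76e-05) and at 90.0 and 103 against 34.1 and 33.0 (1.52, limma adjusted p = 6.81e-05). Col11a1, a fibrillar collagen of cartilage, was at 13.1 and 14.1 against 2.90 and 2.88 (2.19, limma adjusted p = 4.17e-05). Col12a1, a collagen that coats fibrils, was at 2.56 and 2.39 against 17.2 and 15.3 (-2.67, limma adjusted p = 2.17e-05), and Col5a3 at 3.90 and 4.24 against 10.7 and 9.80 (-1.31, limma adjusted p = 0.000417). The abundant Col1a1 and Col1a2 had log2 differences of -0.19 and -0.01 (limma adjusted p = 0.098 and 0.92).

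Igf2, an insulin-like growth factor gene on chromosome 7, was at 345 and 362 FPKM in Hh-CM and at 1153 and 1148 in Esrrb-labelled cells (log2 difference -1.70, SE 0.0415, limma adjusted p = 9.54e-06). The binding protein genes Igfbp5 (9.97 and 10.5 against 1.54 and 1.34 FPKM), Igfbp7 (351 and 384 against 72.1 and 75.1) and Igfbp4 (86.8 and 82.7 against 18.3 and 20.0) were higher in Hh-CM cells by 2.75, 2.32 and 2.14. These 4 were the genes called among the 11 tested insulin-like growth factor and binding protein genes, whose median was 0.32.

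Secreted Wnt modulators and Wnt-responsive genes gave 4 calls among 10 tested. Sfrp1, at 51.6 and 49.6 against 193 and 202 FPKM (log2 difference -1.96, SE 0.0449, limma adjusted p = 8.51e-06), followed its relative Sfrp2, and Wisp1 was at 17.6 and 18.9 against 41.3 and 38.6 (-1.12, limma adjusted p = 0.000113). The Wnt inhibitor gene Dkk2 was higher in Hh-CM cells, at 3.26 and 2.60 against 1.03 and 1.21 (1.31, limma adjusted p = 0.00456). Without both samples named above Dkk2 was no longer called. In the Notch list, 9 of 21 genes were tested and 2 were called, Hes1 and the ligand gene Jag1, at 8.27 and 10.5 against 2.82 and 3.05 FPKM (1.64, limma adjusted p = 0.000583). The receptor gene Notch2 had a log2 difference of 0.01 and the transcriptional mediator Rbpj one of -0.12 (limma adjusted p = 0.91 and 0.066).

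Of 24 listed genes tied to estrogen related receptors, 14 were tested, 2 passed the adjusted p in each direction and 2 were called, Ppargc1a and the pluripotency factor gene Klf4, at 35.0 and 38.9 FPKM in Hh-CM against 14.4 and 12.9 in Esrrb-labelled cells (log2 difference 1.43, limma adjusted p = 0.000102). The median was -0.01. Pdk4, a kinase that restrains glucose oxidation, was at 33.9 and 33.5 against 65.6 and 66.2 FPKM, just short of the fold limit at -0.96 (limma adjusted p = 4.46e-05). The citrate cycle and respiratory genes Idh3a, Cox5b and Atp5b had log2 differences of -0.01, -0.01 and -0.09. Esrra was listed at 0 in all 8 samples, and Esrrg did not exceed 0.0368 FPKM in any.

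In the remaining lists 3 or fewer genes were called. Glucocorticoid-linked genes gave Hsd11b1 and, lower in Hh-CM cells, Ism1 (log2 difference -1.68). The glucocorticoid receptor gene Nr3c1 was at 42.0 and 39.7 against 25.8 and 24.1 FPKM (0.71, limma adjusted p = 0.000387). Angptl4, a lipoprotein lipase inhibitor gene, was lower in Hh-CM cells, at 53.2 and 45.4 against 196 and 204 (-2.03, limma adjusted p = 5.43e-05). Mylk, the myosin light chain kinase gene, was the single call among 15 contractile genes (-1.49), and Adamts2 that among 11 matrix protease and inhibitor genes (-1.13), where 2 were called without Hh-CM replicate 2 and 3 without both samples named above. That list left out other matrix proteases and inhibitors that were called. Among them were Mmp28 (-2.16), Timp4 (-1.47), Adamts9 (-1.19), Adamts14 (-1.97) and Adamts15 (-2.60), lower in Hh-CM cells, and Adamts6 (1.47), higher. Of the 21 cholesterol and fatty acid synthesis genes tested, 10 were lower in Hh-CM cells by the adjusted p, with a median of -0.23 and with Scd1 (-0.94) and Cyp51 (-0.73) furthest. That number was 6 without Esrrb replicate 1, 7 without Hh-CM replicate 2 and 4 without both, and the single call was Fdft1, listed at 0 in Esrrb-labelled cells. No gene was called among 20 glycolysis and hypoxia genes (median -0.01) or 13 interferon genes (median -0.30), where 3 and 5 passed the adjusted p alone. Without both samples named above 1 passed in each. Of 8 fibroblast markers tested, 3 were higher in Hh-CM and 3 higher in Esrrb-labelled cells by the adjusted p. Their median log2 difference was -0.10, and 2 were called, Thy1 and Fn1. The surface marker Thy1 was at 385 and 410 FPKM in Hh-CM against 94.8 and 97.8 in Esrrb-labelled cells (2.04, limma adjusted p = 1.06e-05). The fibronectin gene Fn1 was at 605 and 658 against 336 and 279 (1.04, limma adjusted p = 0.00125). Fn1 fell below the fold limit without Hh-CM replicate 2 (0.98) or Esrrb replicate 2 (0.91).

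**Figure D3:**
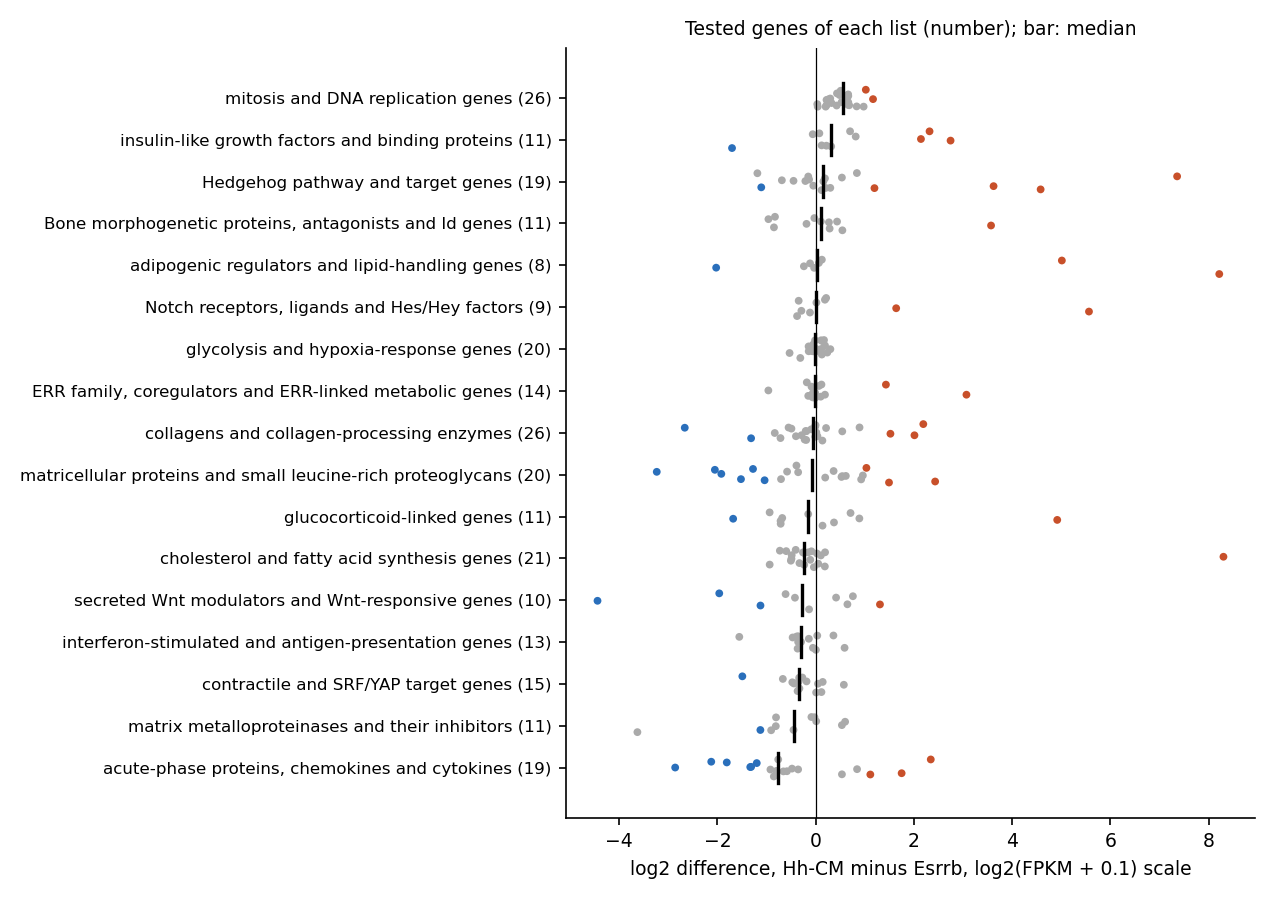
Log2 difference, Hh-CM minus Esrrb-labelled, of each tested gene in 17 lists, with the number tested in brackets, red points for genes called higher in Hh-CM cells, blue points for genes called higher in Esrrb-labelled cells and a bar at the median. The medians run from -0.76 for the acute-phase and chemokine genes to 0.56 for the mitosis and replication genes.

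Genes that moved in opposite directions from Control were those called in both single comparisons with different signs. There were 19 of 10132 (0.188%), 8 higher with Hh-CM and lower in Esrrb-labelled cells and 11 the other way, and all 19 were among the 392. The 2 comparisons share the Control samples, so their values are given side by side. Hes1 was 3.55 above Control with Hh-CM (SE 0.236, limma adjusted p = 0.000513) and 2.01 below it in Esrrb-labelled cells on the log2 scale (limma adjusted p = 0.00494). The second difference rests on Esrrb-labelled values near the pseudocount of 0.1 and on Control values below 1 FPKM, so its size depends on the pseudocount. Serpinb1a, which encodes an inhibitor of neutrophil proteases, was at 15.5 and 15.9 FPKM in Hh-CM, 1.86 and 1.99 in Control and 0.257 and 0.674 in Esrrb-labelled cells, with log2 differences from Control of 2.97 and -1.94. Inhba, the activin A subunit gene, was at 15.4 and 15.5, 2.66 and 2.69, and 1.10 and 1.33 FPKM in the same order (2.49 and -1.08), and its combined samples, at 14.7 and 15.1, lay close to Hh-CM.

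Mfap4, a microfibril-associated gene, had FPKM values of 60.4 and 59.3 in Hh-CM, 27.9 and 29.0 in Control and 11.1 and 10.7 in Esrrb-labelled cells, so the log2 differences from Control were 1.07 and -1.37 (SE 0.0425 for both, limma adjusted p = 9.1e-05 and 6.16e-05). Here the combined samples, at 13.4 and 13.2, lay near the Esrrb-labelled level. Slc40a1, which encodes the iron exporter ferroportin, was at 12.03 and 11.38, 6.21 and 5.19, and 1.339 and 1.496 FPKM in Hh-CM, Control and Esrrb-labelled cells (1.03 and -1.93). The other 3 of the 8 were Fxyd5, a regulator of the sodium pump, the peptidase inhibitor Pi15 and Serpinb9b, with log2 differences from Control of 1.29, 1.44 and 2.03 in Hh-CM and of -1.30, -1.42 and -1.11 in Esrrb-labelled cells.

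On the other side, Sfrp2 was 1.01 below Control with Hh-CM and 3.43 above it in Esrrb-labelled cells, while the sizes were reversed for Dpt, with -2.19 and 1.05. Stc1, a secreted glycoprotein hormone gene, was at 0.175 and 0.195 FPKM in Hh-CM, 0.582 and 0.571 in Control and 3.34 and 3.36 in Esrrb-labelled cells (-1.25 and 2.35). The amino acid transporter gene Slc36a2 was at 0.240 and 0.191, 1.16 and 1.10, and 2.72 and 3.93 FPKM (-1.97 and 1.45). Npnt, which encodes the integrin ligand nephronectin, was at 1.76 and 1.79, 3.92 and 4.31, and 11.5 and 10.9 (-1.17 and 1.43), and the metalloprotease gene Adam12 at 3.62 and 3.25, 7.13 and 7.47, and 15.9 and 15.3 (-1.07 and 1.09). Gpnmb, a transmembrane glycoprotein gene, Prss35 of the serine protease family, Fam110c, the potassium channel gene Kcnj15 and 3110007F17Rik completed the 11, with log2 differences from -1.63 to -1.01 in Hh-CM and from 1.09 to 1.80 in Esrrb-labelled cells. Several of the 19 had a difference close to the limit of 1. The number of opposite genes was 12 without Control replicate 1, 12 without Esrrb replicate 1 and Hh-CM replicate 2 together, of which 11 were among the 19, and 5 with a pseudocount of 1. Without Esrrb replicate 1 alone there were 17, and without Hh-CM replicate 2 alone 18.

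**Figure D4:**
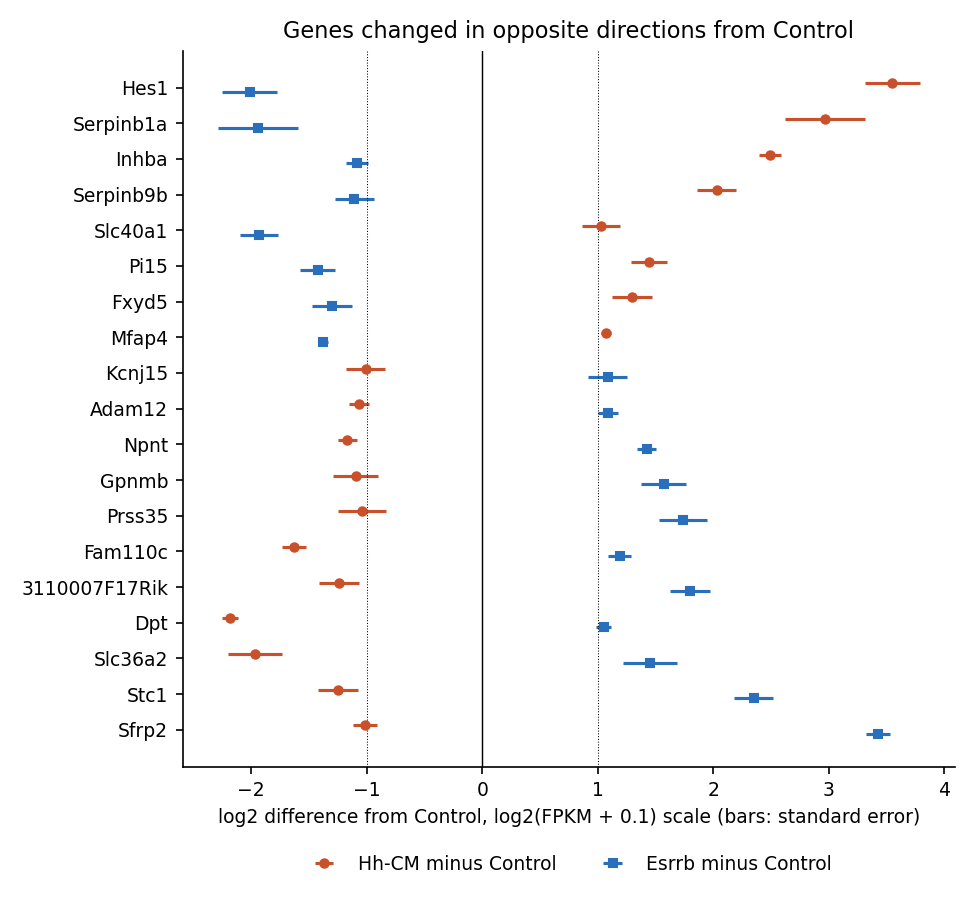
Log2 difference from Control of the 19 genes called in opposite directions, with circles for Hh-CM and squares for Esrrb-labelled cells, bars for the standard error and dotted lines at the limits of -1 and 1. The 8 upper genes, led by Hes1, are right of 0 with Hh-CM and left of it in Esrrb-labelled cells, and the 11 lower genes the reverse.

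The samples that received both treatments entered the choice of the 392 genes only through the spread that the fit estimated over all 8 samples. Their mean was placed on a scale where 0 is the Esrrb-labelled and 1 the Hh-CM mean of log2(FPKM + 0.1). It lay nearer Hh-CM, with which the combined samples share the medium, in 254 genes (64.8%). In 138 it lay nearer Esrrb-labelled, with which they share the vector line, and the median position was 0.68. With only the 2 compared groups in the fit, 384 genes were called, and the share nearer Hh-CM was 64.3%. The share was 69.8% without Esrrb replicate 1, 58.8% without Hh-CM replicate 2 and 63.5% without both. Control was nearer Esrrb-labelled cells in 229 genes and nearer Hh-CM cells in 163. Among the 229, the combined mean was nearer Hh-CM in 187 (81.7%), and among the 163 it was nearer Esrrb-labelled cells in 96. The positions share the Hh-CM and Esrrb-labelled means, so these shares are a description and were not tested.

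Single genes covered the whole scale. Gli1 and Ptch1 had combined positions of 1.05 and 1.09, and Hsd11b1, at 1.20, lay beyond the Hh-CM mean. Fam5c and Pkia were at -0.01 and -0.02, on the Esrrb-labelled mean. Fmod lay beyond it at -0.31, with combined values of 1.79 and 1.80 FPKM under the 3.09 and 3.14 of Esrrb-labelled cells. The 19 genes with opposite changes all had combined means between the 2 groups, from 0.11 for Mfap4 to 0.99 for Inhba, with Hes1 at 0.73, Dpt at 0.67 and Sfrp2 at 0.32.

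**Figure D5:**
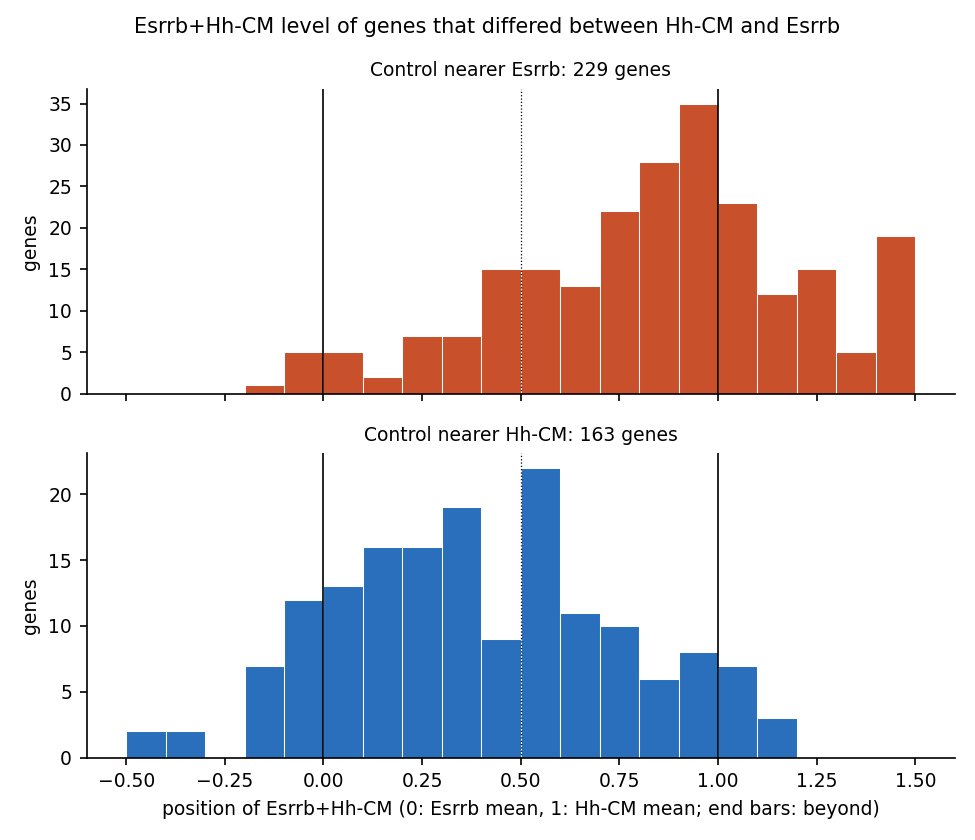
Number of called genes by the position of their Esrrb+Hh-CM mean between the Esrrb-labelled mean (0) and the Hh-CM mean (1), for the 229 genes with Control nearer Esrrb-labelled cells (upper) and the 163 with Control nearer Hh-CM cells (lower). The median position is 0.88 in the upper and 0.38 in the lower panel.

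Some of the largest differences rest on how a locus was assembled or listed. Of the 392 genes, 15 were listed at 0 in both samples of 1 group, 12 in Esrrb-labelled and 3 in Hh-CM cells, and no fold is given for these. Fdft1, which encodes squalene synthase, was listed at 0 in both Esrrb-labelled samples and at 31.0 and 31.8 FPKM in Hh-CM, 35.6 and 35.9 in Control and 34.7 and 32.7 in combined samples. Ormdl2, a regulator of sphingolipid synthesis, was listed at 0 in both Esrrb-labelled samples and at 13.8 or more elsewhere, and Pltp, a phospholipid transfer protein gene, at 34.7 and 25.2 in Hh-CM and at 0 in both Esrrb-labelled and both Control samples. Conversely, Cuedc2 was listed at 0 in both Hh-CM samples and at 43.0 and 40.2 in Esrrb-labelled samples, Tmem138 at 0 against 15.7 and 10.1, and Tomt at 0 against 1.37 and 1.02. Ndufs1, a core subunit of respiratory complex I, was listed at 51.4 in Hh-CM replicate 2 and at 0 in the other 3 of these samples, so a listed 0 was not read as an absent mRNA. With values above 0 required in all 4 samples, 372 genes were called, of which 369 were among the 392.

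Myl6b, with the second largest log2 difference among genes above 0 in all 4 samples (7.11), is uncertain. Its locus on chromosome 10 spanned 7826 bases in both Hh-CM samples, reaching over the neighbouring gene Myl6, and 4726 and 4529 bases in the Esrrb-labelled samples, where it covered Myl6b alone, with values of 901 and 878 FPKM against 6.10 and 6.55. The same holds for 1700015F17Rik, at 18.3 and 17.6 FPKM in Esrrb-labelled cells, whose locus was 77150 bases long there and 41317 bases in the other 6 samples, where it was at no more than 0.246. The loci of Inhba, Gpnmb, Gpr149 and Smoc2 also differed in extent between samples. Such differences, an overlap of the extents under 0.9, were found in 10.2% of the called and 7.72% of the tested genes, and 360 genes were called when they were left out.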

How the data were processed

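RNA from 8 NIH3T3 samples, 2 in each of 4 groups, was sequenced as stranded libraries, and groups were taken from the sample labels. The authors trimmed reads with FASTX-Toolkit, aligned them to mm9 with Bowtie2 and TopHat2, assembled each sample on its own with Cufflinks guided by a reference annotation, and deposited the values as FPKM per assembled locus. The submitters' processing notes also name Cuffdiff. Versions are not given in the sources used here, and the files hold no counts per gene, so no counting intervals were computed.

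The overlap of a locus with an annotated mm9 gene or transcript was divided by their joint span, from the first to the last base of either. Each locus went to the gene with the largest share if it was at least 0.5, and the FPKM of a gene's loci were summed. Genes reaching an FPKM of 1 in 2 or more of the 4 compared samples entered a fit in limma 3.58.1 under R 4.3.3 (variance trend, log2(FPKM + 0.1), 4 group means over all 8 samples, Benjamini-Hochberg adjustment). A gene was called at an adjusted p below 0.05 and a log2 difference of at least 1 in size. Tables and plots were made with Python 3.11.15, numpy 2.4.6, pandas 2.3.3, scipy 1.17.1 and matplotlib 3.10.9. On simulated data of 10132 genes for this comparison, 93% of 100 genes changed by 1.5 and 95% of 100 changed by 2 on the log2 scale were called in the right direction, and 1 unchanged gene was called. The 200 changed genes were drawn from those above a minimum mean expression, and the noise was normal. These rates therefore do not cover weakly expressed genes or loci whose listing or extent differed between samples.

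The text names Hes1, Sfrp2 and Dpt, leading genes among the 12 largest differences in each direction among called genes above 0 in all 4 samples, all genes with opposite changes from Control, called members of the gene lists with the leading Hedgehog and estrogen related receptor genes, and up to 3 genes in each direction listed at 0 in both samples of 1 group. A few list members that were not called, Ndufs1, the TATAAA motif and the genes of the closing observations were chosen after their values were seen. The members and lists were chosen with earlier results of these data known. Pseudocounts, filters, scaling, locus matching, the fold limit, a replicate block and leaving out each sample were tried as alternatives. Leaving out Esrrb replicate 1 and Hh-CM replicate 2 together, the limit of 0.9 on locus extents and all alternatives for the position of the combined samples were added after the data were seen. Annotated list members without a matched value, such as Foxl1, were not analysed here, and some genes are not reported here.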

Additional observations from a re-analysis of the deposited data

How the results depend on the processing

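The number of genes called between Hh-CM and Esrrb-labelled cells was 256 with the FPKM limit of 1 applied to all 4 samples, 242 over genes with the same loci in all 8 samples and 2675 with no fold limit. It was 386 to 411 when each sample was left out in turn. The number of genes with opposite changes was 5 with a pseudocount of 1, 8 with the FPKM limit of 1 in all 4 samples, 226 with no fold limit, 12 to 19 when each sample was left out, and 12 without Esrrb replicate 1 and Hh-CM replicate 2. The share of called genes whose combined mean lay nearer Hh-CM was 59.1% with no FPKM limit and 56.71% to 69.83% when each sample was left out, with the lowest value without Hh-CM replicate 1. Of the 84 called genes that the naming rule gave, 53 were called under each of the first 2 limits, and 80 to 84 when each sample was left out. Fewer genes were tested under both limits. All 392 genes kept their sign wherever they were tested. The share of calls higher in Hh-CM cells ran from 48.05% to 56.11%.

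The replicate block gave 379 called genes, 19 opposite genes, 84 named genes and 65.44% nearer Hh-CM. Samples with the same number had correlations of their deviations from -0.064 to 0.057, so the numbers do not pair the samples.

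Of the 84 named genes, 70 kept the call in every setting that tested them. Top2a, Fn1, Smoc2, Abcc3, Il6 and Ccl11 lost it when 1 sample was left out. Retnla, Saa1, Ccl9 and Tomt lost the call without Esrrb replicate 1 and Hh-CM replicate 2 together (limma adjusted p = 0.0991, 0.111, 0.0785 and 0.102). With 2 samples in each group and no read counts in the files, differences in genes near or below 1 FPKM are the least certain.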

Other observations

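Outside the lists, Fth1, Pdgfc, Nrp1 and Lgr4 were among the genes called higher in Hh-CM cells. Fth1, the ferritin heavy chain gene, was at 8184 and 8062 FPKM in Hh-CM against 3267 and 3286 in Esrrb-labelled cells (log2 difference 1.31, SE 0.0452, limma adjusted p = 3.04e-05), with Control between them at 4514 and 4647. The growth factor gene Pdgfc was at 46.9 and 40.0 against 10.6 and 11.0 (2.00, limma adjusted p = 6.8e-05), the co-receptor gene Nrp1 at 63.6 and 68.2 against 19.7 and 19.4 (1.75, limma adjusted p = 1.64e-05), and Lgr4, a receptor for R-spondins, at 29.9 and 31.1 against 6.54 and 6.64 (2.19, limma adjusted p = 8.3e-06). In Pdgfc, Nrp1 and Lgr4 the combined samples were also above all Control and Esrrb-labelled samples.

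Among called genes higher in Esrrb-labelled cells, Rarres2, which encodes the chemoattractant chemerin, was at 169 and 145 FPKM against 26.6 and 26.3 in Hh-CM cells (log2 difference -2.56, SE 0.0771, limma adjusted p = 1.93e-05). Crabp1, a retinoic acid binding protein gene, was at 155 and 164 against 42.8 and 39.7 (-1.95, limma adjusted p = 0.000338). Il1rl1, which encodes the receptor for the product of Il33, was at 192 and 199 against 46.7 and 44.5 (-2.10, limma adjusted p = 9.54e-06), the opposite direction to Il33 itself, and its locus differed in extent between samples. These genes were chosen after their values were seen.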
